A study of Homo sapiens with 2 samples.

Results

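The genes described here are 8 genes of chromosome band 9p21 that lie around MIR31, the locus that encodes the microRNA miR-31: MLLT3, FOCAD, KLHL9, MIR31HG, MTAP, CDKN2A, CDKN2B and DMRTA1, in order from the telomeric to the centromeric side. They were chosen by symbol, and every probe set that the platform annotation assigns to exactly 1 of these symbols was used, which gave 22 probe sets of 41091 with a single gene symbol (8 genes of 19775). The study measured U251 cells, a human glioma cell line grown in DMEM with fetal bovine serum, on the Affymetrix HG-U133 Plus 2 array. One group is U251 transfected with a control, the other U251 transfected with miR-31, and each is 1 array of total RNA. The labels do not give the construct, the time after transfection or how the cells were selected.

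Band 9p21 is among the regions most often lost from both chromosome copies in glioma. CDKN2A encodes p16, which holds back the cyclin D kinases that release cells into S phase, and from another first exon ARF, which protects p53 by binding MDM2. CDKN2B encodes the related inhibitor p15, and MTAP, their neighbour, is often lost with them. MIR31 lies within its host gene MIR31HG, a long noncoding RNA, so loss or silencing of that locus removes miR-31 as well.

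Mature miR-31 and its hairpin are shown first, because the transfected product matches a sequence inside this gene group. RefSeq places the hairpin on GRCh38.p14 at chr9:21512115-21512185, minus strand, and the mature arm at chr9:21512158-21512178. Capitals mark the seed, bases 2 to 8, in the mature RNA, and the mature arm in the hairpin.
hsa-miR-31-5p: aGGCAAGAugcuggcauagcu
MIR31: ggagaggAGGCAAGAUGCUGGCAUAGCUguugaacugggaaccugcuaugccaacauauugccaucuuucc
The probe sets used here read MIR31HG and the neighbouring transcripts, not mature miR-31.

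The level of each gene was taken first from its deposited intensity and from the percentile of that intensity among the 54613 probe sets of the array that are not controls. A percentile places a reading on its array; probes differ in brightness, so it is not an amount of RNA per gene. Detection calls were not used here. Low readings were therefore set beside a list of genes restricted to other tissues, such as insulin and the olfactory receptors, of which 45 of 54 were measured with 83 probe sets. The 95th percentile of that list was 187.1 on the control array and 197.1 on the miR-31 array, and its medians were 16.4 and 20.1. A reading at or below the 95th percentile on both arrays is called within the tissue-restricted range below. KRT10, a keratin of the list, was read at up to 5683 on the control array, so not every gene of the list is silent in this line. Of all probe sets with 1 symbol, 58.6% were within the range, and of the 22 probe sets of the 9p21 genes 11 were.

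These 11 were unevenly placed along the chromosome. From MLLT3 to MTAP 11 of 16 probe sets exceeded the range on at least 1 array, and each of the 5 genes had at least 1 that did so. From CDKN2A to DMRTA1 0 of 6 did, and readings of the 3 genes lay between 2.43 and 33.2 in control cells and between 0.525 and 71.9 in miR-31 cells. This division between MTAP and CDKN2A was made after the values were seen. With the array median as the boundary, 63.1 and 67.4, 8 of 22 probe sets were below it on both arrays, against 41.8% of all probe sets with 1 symbol.

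**Figure D1:**
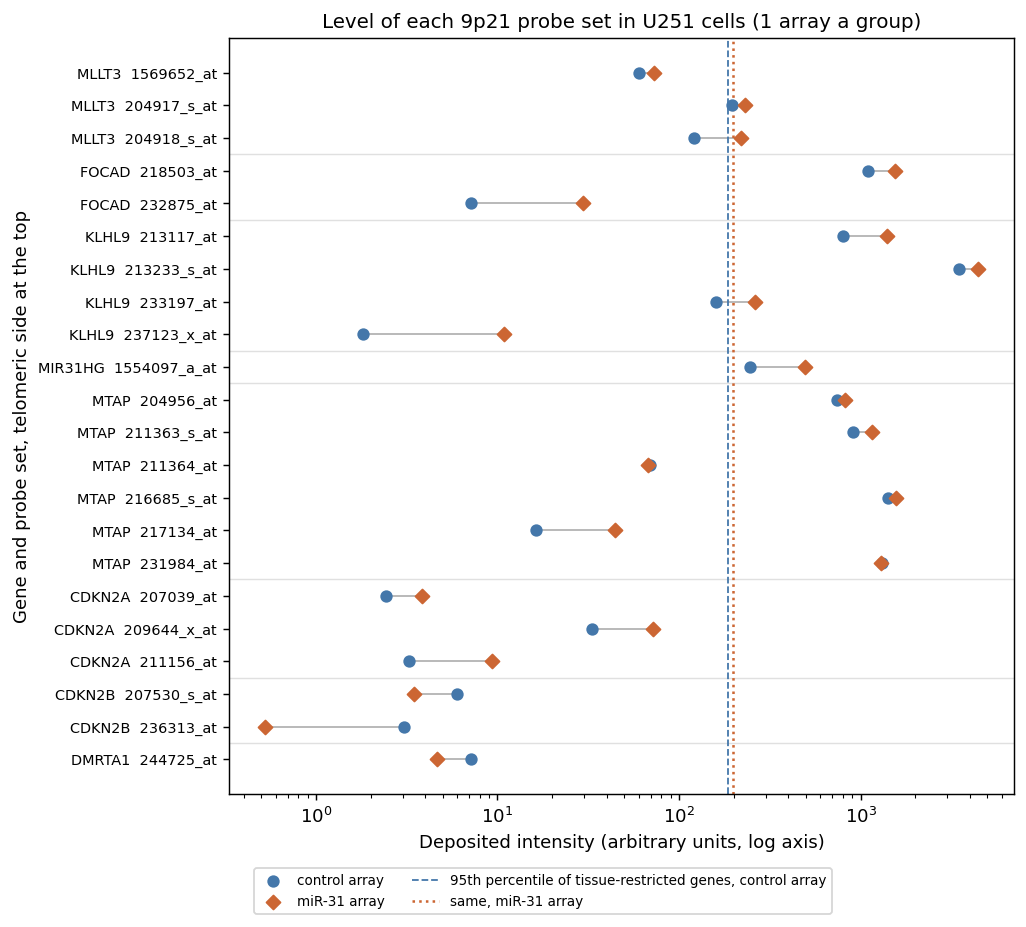
Deposited intensity of each of the 22 probe sets on a log axis, genes ordered from the telomeric side at the top, circles for the control array and diamonds for the miR-31 array; the vertical lines mark the 95th percentile of tissue-restricted genes, 187.1 and 197.1. Probe sets of CDKN2A, CDKN2B and DMRTA1 all sit left of the lines on both arrays, while 4 of 6 for MTAP sit to the right on both.

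MTAP, the enzyme that recycles methylthioadenosine from polyamine synthesis into methionine, was read clearly on both arrays. Probe set 216685_s_at had 1410 in control and 1559 in miR-31 cells, at percentiles 88.2 and 89.1. Probe set 231984_at had 1312 and 1294, and 211363_s_at had 908.7 and 1159. The fourth, 204956_at, had 742.0 and 816.1. These 4 were at percentiles of 82.0 or more on both arrays, and the arrays differed little. The remaining MTAP probe sets were low: 211364_at had 69.6 and 67.1, and 217134_at had 16.3 and 44.4. MTAP had the most probe sets outside the range, 4 of 6, but also the most probe sets. KLHL9 had 3 of 4 outside it and MIR31HG 1 of 1.

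CDKN2A and CDKN2B, the next members on the centromeric side, were not separated from background on either array. CDKN2A had 2.43 in control and 3.84 in miR-31 cells on 207039_at, at percentiles 4.07 and 8.70. On 211156_at it had 3.25 and 9.27. Its highest reading came from 209644_x_at, with 33.2 and 71.9, where the suffix marks probes that may also bind other transcripts. CDKN2B had 5.96 and 3.48 on 207530_s_at and 3.06 and 0.525 on 236313_at, the last being at percentile 0.227 of the miR-31 array. An intensity near 0 does not distinguish a lost gene from a silent one, and DNA was not measured here. DMRTA1, a transcription factor of the DMRT family, had 7.19 and 4.67 on its single probe set. The 6 further DMRT genes that were listed were also within the range by their brightest probe sets, between 2.23 and 27.1 in the control.

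KLHL9, a substrate adaptor of a CUL3 ubiquitin ligase that acts on Aurora B in mitosis, gave the highest reading of the group. Probe set 213233_s_at had 3491 in control and 4426 in miR-31 cells, at percentiles 94.7 and 96.0. Probe set 213117_at had 797.5 and 1392. Probe set 233197_at had 159.5 and 263.6 and exceeded the boundary on the miR-31 array alone. That depends on the boundary: without KRT10 in the list it was 132.3 in control cells, which 159.5 exceeds. The fourth, 237123_x_at, had 1.82 and 10.9 and was within the range. FOCAD, a focal adhesion protein linked to stability of the SKI RNA decay complex, had 1102 and 1551 on 218503_at and 7.16 and 29.7 on 232875_at. The brighter FOCAD reading was at percentiles 86.0 and 89.0.

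MLLT3, a YEATS-domain subunit of the super elongation complex, was read near the boundary. It had 195.0 in control and 230.2 in miR-31 cells on 204917_s_at, 120.9 and 219.4 on 204918_s_at and 59.9 and 72.8 on 1569652_at. The first exceeded the boundary on both arrays, by little, and the second on the miR-31 array alone. Without KRT10 in the list the boundary was 132.3 and 112.5, which the first exceeded by more. On both arrays the first was below the brighter SFTPB reading of the tissue-restricted list (219.9 and 252.9). MIR31HG, read by 1 probe set (1554097_a_at), had 244.6 and 495.2, at percentiles 69.5 and 76.8. The host transcript was thus above the range in the control cells too.

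By the brightest probe set of each gene the control array gave the order KLHL9, MTAP, FOCAD, MIR31HG, MLLT3, CDKN2A, DMRTA1 and CDKN2B, and the miR-31 array gave the same order. This orders readings and not amounts of RNA, since probe sets differ in affinity, and with 1 array a group there is no spread over samples by which neighbours could be separated. FOCAD and MTAP were at percentiles 89.0 and 89.1 of the miR-31 array.

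Genes between the 8, and the nearest on each side, were placed by the RefSeq gene table of GRCh38.p14. Of 17 other genes with probe sets between MLLT3 and DMRTA1, 0 had a probe set outside the tissue-restricted range, where 58.6% of all probe sets with 1 symbol lay within it. Of the 17 genes, 14 are type I interferon genes, the antiviral cytokine cluster that surrounds KLHL9 and MIR31HG. These 14 lay between 1.42 and 50.6 in control cells and between 0.827 and 47.5 in miR-31 cells, with medians of 13.0 and 16.8. IFNB1, interferon beta, had 1.88 on both arrays. At least 2-fold higher on the miR-31 array were 2 of the 14, IFNE (1.42 and 37.8, log2 ratio 1.63) and IFNA4 (4.52 and 35.3, 1.32), and 2 were at least 2-fold lower, IFNW1 (50.6 and 5.19, -1.65) and IFNA10 (32.8 and 5.97, -1.15). All 4 were dim on both arrays, where such ratios are common, as the shares given below for dim probe sets show. The others lay within 2-fold. IFNA7 (20.2 and 47.5), IFNA17 (15.0 and 39.2), IFNA21 (4.30 and 18.3), IFNA5 (13.8 and 24.8) and IFNA8 (3.17 and 4.36) were above 0 on the log2 scale. IFNA14 (30.3 and 29.0), IFNA16 (19.8 and 15.2), IFNA1 (12.2 and 3.22) and IFNA2 (2.16 and 0.827) were below it. The alpha interferon genes are similar in sequence, so 1 probe set may read several of them.

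The other 3 genes in between were HACD4, an enzyme of fatty acid elongation, and the antisense RNAs CDKN2A-AS1 and CDKN2B-AS1. HACD4 had 15.0 and 11.3 on its brighter probe set, CDKN2A-AS1 22.7 and 8.12, and CDKN2B-AS1 3.74 and 1.60. On the centromeric side the nearest genes were ELAVL2, a neuronal RNA-binding protein (percentiles 39.9 and 54.7 in control and miR-31 cells), TUSC1 (37.9 and 13.3) and LINC01241 (24.6 and 12.9). From CDKN2A-AS1 to LINC01241, 8 genes with 12 probe sets in a row gave 0 readings outside the range, the highest on each array being that of ELAVL2. This run was picked after the values were seen, and 58.6% of all probe sets with 1 symbol lay within the range. An unbroken low run was not particular to this side. The genes from HACD4 to IFNA5, between FOCAD and KLHL9, also gave no reading outside the range. On the telomeric side the 3 nearest genes were also within it: SMNP, a pseudogene (percentiles 7.13 and 8.63), SLC24A2, an ion exchanger (28.0 and 44.4), and ACER2, a ceramidase (57.3 and 55.4). The reading of ACER2 was above the median of the array in control cells (98.4 against 63.1), and those of SMNP and SLC24A2 were below it on both arrays.

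**Figure D2:**
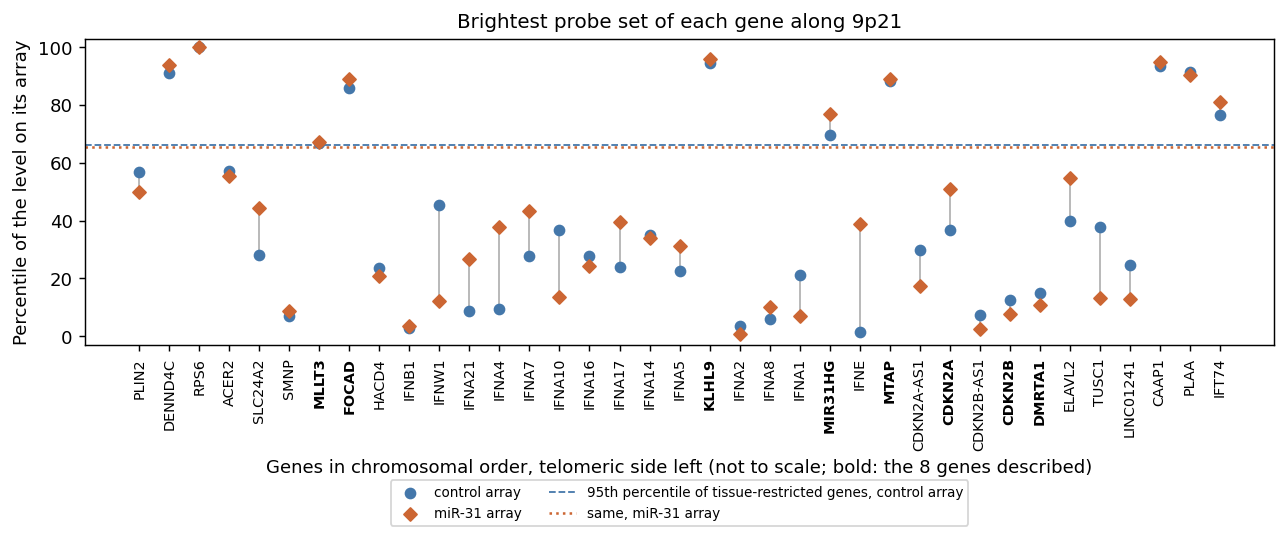
Percentile of the brightest probe set of each gene on its array (vertical axis, percent), for 37 genes in chromosomal order with the 8 described genes in bold, circles for control and diamonds for miR-31; lines mark the 95th percentile of tissue-restricted genes (percentiles 66.2 and 65.4). MLLT3 and FOCAD, side by side, and KLHL9, MIR31HG and MTAP, each between low neighbours, stand above the lines. No gene from HACD4 to IFNA5 or from CDKN2A-AS1 to LINC01241 does.

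The second question was how these genes differed between the miR-31 and the control array. A ratio is the difference in log2(intensity + 16), miR-31 cells minus control cells, which understates the change of dim probe sets, and 1 on this scale is 2-fold. Among the 9p21 genes 0 of 22 probe sets were at least 2-fold higher and 0 at least 2-fold lower. Of all probe sets with 1 symbol, 6.03% were at least 2-fold higher and 5.06% lower. The shares were 8.58% and 9.0% among dim probe sets (a mean intensity under 64.4, the median of all) and 3.91% and 1.79% among the others, called bright below. Of the 22 probe sets, 13 were bright.

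Most ratios were small and above 0. Of 22 probe sets 17 were above 0 and 5 below, against 51.9% above 0 among all with 1 symbol, and the median was 0.34 against 0.02. A change of scale by a constant moves these and all other probe sets alike. The added bacterial hybridisation controls (18 probe sets) were themselves higher on the miR-31 array with a median of 0.19, and the poly-A spike-in controls (24 probe sets) with a median of 0.55. With ratios centred on the former 14 of 22 were above 0, against 35.5% of all with 1 symbol. With the latter 8 of 22 were, against 16.4%, and the medians were -0.21 against -0.53. At 1.5-fold, 8 of 22 were higher and 0 lower, against 15.3% and 12.4% of all with 1 symbol, and 4 of the 8 were dim. The 8 came from 6 genes, and probe sets of the same gene are not independent readings. The share at 1.5-fold among dim probe sets alone was not taken.

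MIR31HG was at 244.6 in control and 495.2 in miR-31 cells, which is 0.97 on the log2 scale. It crossed 2-fold with a pseudocount of 1 (1.01), and was 0.42 when every ratio was centred on the poly-A controls. A single probe set reads this gene, so no other reading of the array bears on it. KLHL9 had ratios of 0.79, 0.67, 0.59 and 0.34 on its 4 probe sets, and the brightest had the smallest. FOCAD had 0.49 on its clear probe set and 0.98 on the dim one, and MLLT3 had 0.78, 0.23 and 0.22. All probe sets of these 4 genes were higher on the miR-31 array on the deposited scale, and centring on the poly-A controls, which lowers every probe set by 0.55, put the brightest of FOCAD, KLHL9 and MLLT3 below 0.

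The 4 clear MTAP probe sets had ratios of 0.35, 0.14, 0.13 and -0.02, and those within the tissue-restricted range 0.90 and -0.04. CDKN2A had 0.84, 0.39 and 0.11, CDKN2B -0.17 and -0.21, and DMRTA1 -0.17, all from readings within the tissue-restricted range. The 78 probe sets of the tissue-restricted list that were in that range had ratios from -1.84 to 1.65, with 9 at least 2-fold higher and 9 lower. The CDKN2A ratios lie inside that span.

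**Figure D3:**
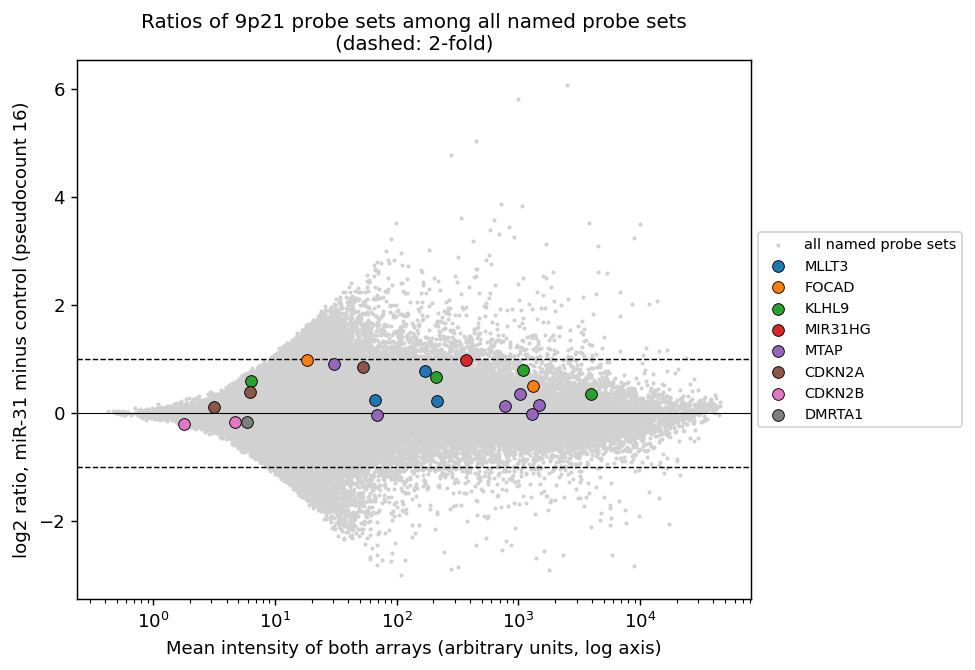
Log2 ratio of the miR-31 array to the control array (pseudocount 16) against the mean intensity of both arrays (log axis), grey points for 41091 probe sets with 1 symbol and coloured points for the 22 probe sets of the 9p21 genes; dashed lines mark 2-fold. All 22 lie between the dashed lines, with MIR31HG (0.97) and a dim probe set of FOCAD (0.98) nearest to the upper one.

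Genes that work with the 9p21 proteins were compared by their brightest probe sets. Over all 19775 genes taken this way, 6.24% were at least 2-fold higher and 5.20% lower, with a median ratio of 0.01. In the cyclin D and RB pathway, which p16 and p15 inhibit, 18 of 19 genes were measured, 0 were at least 2-fold higher and 1 lower, with a median of -0.24. CCND1, cyclin D1, was that gene, with 9089 in control and 2352 in miR-31 cells (-1.94). CDKN2D, another inhibitor of the same kinases, had -0.73 (and 1.04 on its other probe set), and CDK4 -0.52. Both kinases that p16 binds were read brightly, CDK4 at 5811 and 4052 and CDK6 at 5249 and 4201, and RB1 was at 3396 and 2790. The 7 probe sets of CDK6 had ratios between -0.41 and 0.67, and RB1 had 0.41 on its other probe set. At the other end CDKN1A, the inhibitor p21, had 0.74, E2F1 0.70 (and -0.41 on its other probe set) and CDKN1C 0.63. Of the ARF, MDM2 and p53 list 10 of 12 were measured and 0 passed 2-fold, with a median of 0.26. Centred on the poly-A controls this was -0.29, and the median of all genes was -0.54. FAS, a death receptor, had 0.89 (between -0.49 and 1.12 on 5 probe sets), CDKN1A 0.74 and SESN1 0.49. The lowest were GADD45A, a DNA damage response gene, at -0.73, BAX at -0.12 and NPM1, a nucleolar partner of ARF, at 0.07. MDM2 itself was at 2547 and 3229 (0.34), and its 10 probe sets lay between -0.97 and 1.06.

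The next list holds genes of methionine salvage, polyamine synthesis and the PRMT5 complex, which is sensitive to the MTAP substrate. All 17 were measured, 1 was at least 2-fold lower and 0 higher. By the brightest probe set 14 of 17 had ratios below 0, against 49.2% of all genes, and the median was -0.30. Of the 14, APIP (0.43), MAT2A (0.36), MTR (0.36) and WDR77 (0.14) had another probe set above 0. AMD1, which supplies the aminopropyl donor for polyamines, had 6172 in control and 3046 in miR-31 cells (-1.02, and -0.83 on its other probe set). ODC1, the first enzyme of polyamine synthesis, had -0.70 and RIOK1, a PRMT5 adaptor, -0.61. The highest were MRI1, the salvage enzyme that follows MTAP, at 0.37, ADI1 at 0.15 (-0.19 on another probe set) and AHCY at 0.09. PRMT5 had 1608 and 1316 (-0.29).

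By their brightest probe sets 0 partners of the telomeric members, Polycomb genes and DMRT genes passed 2-fold. In the KLHL9 ligase list, with 5 of 5 measured and a median of -0.11, AURKB had -0.84, KLHL21 -0.59 and CUL3 -0.11, while KLHL13 had 0.13 and RBX1 0.06. CUL3 reached 0.99 on another of its 3 probe sets. The 4 genes of the SKI list had a median of 0.23 (-0.32 centred on the poly-A controls, where that of all genes was -0.54), with SKIC8 at 0.55 (between -0.27 and 1.47 on 5 probe sets), HBS1L at 0.27, SKIC2 at 0.19 and SKIC3 at 0.11. The elongation complex list of MLLT3 had 16 of 16 measured and a median of 0.05. Its highest were ELL3 (0.98, from 57.5 and 128.9), CCNT2 (0.75) and ELL (0.67), and its lowest AFF3 (-0.28, dim), DOT1L (-0.24) and EAF1 (-0.21). CCNT2 went down to -0.34 and AFF3 up to 0.13 on another probe set each. On other probe sets AFF1 reached -1.94, MLLT10 -1.15 and MLLT6 1.01, and in the Polycomb list PHC3 reached 1.15, all 4 chosen after their values were seen. Polycomb genes, known to repress CDKN2A and CDKN2B, had 15 of 19 measured, all outside the tissue-restricted range, and a median of -0.03. EZH2, the methyltransferase, was at 2919 and 2472 (-0.24) and SUZ12 at 6558 and 5762 (-0.19, and 0.58 on another probe set). EZH1 (0.54), KDM6A and CBX7 (0.37 each) were highest and PCGF2 (-0.45), KDM6B (-0.36) and EED (-0.30) lowest. Except CBX7, with 1 probe set, each of these highest and lowest genes had another probe set of the opposite sign. Those reached -0.35 for EZH1, -0.38 for KDM6A, 0.34 for PCGF2, 0.47 for KDM6B and 0.98 for EED. In the DMRT list, within the range throughout, DMRT1 had 0.74, DMRT3 0.52 and DMRTC2 0.49, and DMRTA2 -0.73, DMRT2 -0.46 and DMRTB1 0.07.

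The starts of MIR31HG, MTAP and CDKN2A are shown because the first had the largest ratio among clear readings, while the other genes stand on either side of the step in level between MTAP and CDKN2A. Each is 300 bases from 250 before to 50 after the start, from RefSeq on GRCh38.p14, written along the gene's own strand with CpG dinucleotides in capitals. They are MIR31HG at chr9:21559749-21560048 (minus strand), MTAP at chr9:21802386-21802685 (plus strand), and CDKN2A at the p16 start, chr9:21974808-21975107, and the ARF start, chr9:21995275-21995574 (both minus strand).
MIR31HG: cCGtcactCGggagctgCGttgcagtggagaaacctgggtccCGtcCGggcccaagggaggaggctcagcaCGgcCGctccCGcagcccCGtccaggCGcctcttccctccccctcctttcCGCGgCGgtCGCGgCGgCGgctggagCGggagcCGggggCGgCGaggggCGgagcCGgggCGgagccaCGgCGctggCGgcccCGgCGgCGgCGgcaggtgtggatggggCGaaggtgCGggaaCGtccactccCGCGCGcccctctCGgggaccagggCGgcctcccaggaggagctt
MTAP: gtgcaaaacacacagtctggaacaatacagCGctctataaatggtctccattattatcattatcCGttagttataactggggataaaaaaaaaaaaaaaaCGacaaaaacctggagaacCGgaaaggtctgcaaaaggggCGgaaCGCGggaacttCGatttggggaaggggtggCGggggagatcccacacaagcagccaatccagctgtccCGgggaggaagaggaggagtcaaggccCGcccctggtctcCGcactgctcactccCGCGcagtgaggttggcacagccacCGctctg
CDKN2A p16 start: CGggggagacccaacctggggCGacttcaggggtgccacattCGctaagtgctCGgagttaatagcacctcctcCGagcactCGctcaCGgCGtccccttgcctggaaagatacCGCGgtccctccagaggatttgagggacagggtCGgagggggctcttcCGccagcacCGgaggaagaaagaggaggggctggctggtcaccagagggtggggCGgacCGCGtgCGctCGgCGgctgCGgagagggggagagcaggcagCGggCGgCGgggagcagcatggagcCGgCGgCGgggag
CDKN2A ARF start: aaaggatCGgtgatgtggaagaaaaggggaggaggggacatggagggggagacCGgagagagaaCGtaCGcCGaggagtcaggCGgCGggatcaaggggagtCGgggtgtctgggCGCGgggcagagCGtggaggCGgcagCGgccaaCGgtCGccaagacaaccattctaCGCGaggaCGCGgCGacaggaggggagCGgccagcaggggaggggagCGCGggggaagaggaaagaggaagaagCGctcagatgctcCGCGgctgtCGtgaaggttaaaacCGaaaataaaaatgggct
All 8 genes had an entry, with 9 such windows in all. MIR31HG and FOCAD each had 39 CpG dinucleotides, a number reached by 8.71% of 35116 windows of that length. MTAP had 15, CDKN2A 26 at the p16 start and 28 at the ARF start, and the median of all windows was 14. These counts come from the reference sequence and say nothing of methylation in U251. The interferon response element core GAAANNGAAA, searched on both strands, was in 0 of the 9 windows and in 3.57% of all. The letters TATAAA, likewise on both strands, were in the MTAP window only and in 11.5% of all.

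The label of a glioma line was set beside marker genes. Of 8 glial markers 7 were outside the tissue-restricted range, and S100B was within it (38.1 and 50.8). VIM had 29991 in control and 34112 in miR-31 cells, SOX2 13333 and 17486 and GFAP 2007 and 3624, while NES had 11039 and 5877, SOX9 4170 and 2826, FABP7 24657 and 17202 and CD44 23866 and 20146. All 5 immune markers measured and all 3 endothelial markers were within the range by their brightest probe sets. Summed over each list, the level was 90.7 in control and 163.8 in miR-31 cells for immune markers, 165.2 and 190.5 for endothelial, 512.9 and 813.8 for neuronal, 5971 and 2963 for epithelial and 1726 and 1134 for fibroblast markers. Of the 4 neuronal markers SYT1 was outside (344.6 and 704.6), of the 3 epithelial ones KRT18 (5950 and 2938) and of the 3 fibroblast ones COL1A1 (1630 and 1052). By the brightest probe set, CD14 (1.75), CD3E (1.54) and VWF (1.49) were at least 2-fold higher. LUM (-1.17), CDH5 (-1.02) and KRT18 (-1.01) were at least 2-fold lower. All of these but KRT18 came from dim readings. On their other probe sets VWF had -1.17 and LUM 0.31. PECAM1 reached 2.41, GFAP 1.03 and DCN -1.25 on probe sets other than the brightest. Among the glial markers NES had 0.03 on its other probe set and SOX2 went down to -0.48. The 13 probe sets of CD44 lay between -0.69 and 0.96. The part of the marker genes in the 9p21 values was not tested.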

How the data were processed

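Total RNA of 2 U251 cultures, 1 per group, was hybridised to HG-U133 Plus 2 arrays. The authors deposited 1 linear intensity per probe set and array (54675 probe sets, 62 of them controls). Which software made them is not given in the sources used. Both arrays had a mean intensity of 500.1 after trimming 2 percent at each end, so the deposited values had been scaled to a common level. The number of arrays limits the precision: no p-value was computed, and 2 arrays give no likeness of pattern between genes.

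The platform annotation gave 1 symbol for 41091 probe sets, which were used, several for 1801 and none for 11721. Percentiles were taken over 54613 probe sets, and ratios as log2(intensity + 16). A list's gene was represented by its brightest probe set. The genes named were every 9p21 gene with all its probe sets, all other genes between them and the 3 nearest on each side, and up to 3 highest and 3 lowest per list with any gene past 2-fold; the tissue-restricted list is given by counts. The genes, lists and tests were chosen with earlier results of these data known. The calculation was tested on simulated data with changes placed only in probe sets read brightly in the control. Recovery of changes in dim probe sets was therefore not tested. Alternatives were other pseudocounts, scalings, level boundaries and probe set choices. Python 3.11.15, numpy 2.4.6, pandas 2.3.3, statsmodels 0.14.6 and matplotlib 3.10.9 were used.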

Additional observations from a re-analysis of the deposited data

How the results depend on the processing

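No paired analysis was possible because with 1 array per group nothing can be paired or omitted. Of 154 ratios of the 22 probe sets under 7 other scales or pseudocounts, 8 passed 2-fold where the reported ratio did not: 7 with a pseudocount of 1 and 1, the dim FOCAD probe set at 1.01, with a level trend removed by loess. The number of probe sets at least 2-fold higher, 0, was 6 with a pseudocount of 1, 1 after loess and 8 with a threshold of 1.5-fold, and the number at least 2-fold lower, 0, was 1 with a pseudocount of 1. Of these 7 ratios under a pseudocount of 1, only that of MIR31HG (1.01) came from a probe set outside the tissue-restricted range. The median ratio of 0.34 was 0.18 with a pseudocount of 64, 0.15 relative to the hybridisation controls and -0.21 relative to the poly-A controls, while the median of all probe sets with 1 symbol moved alike, from 0.02 to -0.17 and -0.53. The number of probe sets within the tissue-restricted range, 11, was 22 with the highest probe set of the list as boundary, which is a KRT10 reading. It was 11 with the list's 90th percentile and, an alternative chosen after seeing the data, without KRT10. The boundary itself was lower in both cases: 106.6 in control and 90.4 in miR-31 cells at the 90th percentile, and 132.3 and 112.5 without KRT10. These alternatives were counted for the 22 probe sets only. Other genes called within the range, such as ACER2, PECAM1 and SNAP25, would leave it under a lower boundary.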

Other observations

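Beyond the 3 nearest genes on each side the levels along 9p were high again, a stretch chosen once the values were known. CAAP1, an apoptosis regulator and the next named gene past LINC01241, had 2888 in control and 3636 in miR-31 cells, and PLAA, a phospholipase A2 activating protein, had 2096 and 1841. IFT74, a subunit of the ciliary transport complex, had 443.2 and 720.8 (0.68). On the telomeric side RPS6, a ribosomal protein, had 38300 and 40785 and DENND4C, a regulator of RAB proteins, 1982 and 2952 (0.57), while PLIN2, a lipid droplet protein, was within the tissue-restricted range (94.7 and 67.4). None of these 6 reached 2-fold by its brightest probe set, although the dimmer probe set of PLIN2 had 1.27.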
